A study of Mus musculus with 28 samples.

Results

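The genes described here are 10 neuropeptide genes, *Calca*, *Calcb*, *Adcyap1*, *Nts*, *Npy*, *Gal*, *Tac1*, *Vip*, *Sst* and *Penk*, taken by name from the 28244 genes counted in 28 RNA-seq samples of 11 groups. Of the 10, 3 were chosen partly by their values: *Calca* because it was higher in the peripheral neural stem cells (pNSCs), and *Nts* and *Adcyap1* because they were higher in neural crest stem cells (NCSCs). Those contrasts are therefore given as descriptions without a test. The other 7 were tested wherever they passed the filter on low counts.

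The study derived pNSC lines from mouse tissue outside the brain and compared them with brain neural stem cells (NSCs), with NCSCs and with the tissue cells, to ask whether they resemble brain NSCs. In the Nes-GFP mice, whose transgene marks *Nestin*-expressing cells, GFP+ cells were sorted from adult lung and postnatal tail. This gave lung pNSCs (n = 2) and tail pNSCs (n = 2), set beside brain NSCs (n = 2), lung cells (n = 2) and tail cells (n = 2). In the Wnt1-Cre; R26-mTmG mice, whose recombined neural crest cells carry GFP and other cells Tomato, Tomato+ postnatal tail pNSCs (n = 3) and dorsal root ganglion (DRG) pNSCs (n = 3) were set beside brain NSCs (n = 3) and beside NCSCs from the DRG of adult wild-type mice (n = 3). In the Sox2-GFP mice, which carry GFP at the *Sox2* locus, postnatal lung pNSCs (n = 3) were set beside brain NSCs (n = 3) and the same lung cells. The labels name the Nes-GFP samples, the lung cells and the tail cells by tissue only, and their mouse is taken from the study's text. Brain NSCs came from whole adult or postnatal brain. Adult meant about 4 to 6 weeks and postnatal day 1 to 5. All pNSC and brain NSC lines had been grown in NSC medium with EGF and bFGF, pNSC lines came from picked, usually clonal clusters, and Wnt1-Cre may leave some crest cells unmarked and also marks midbrain cells. The labels give the strain as C57BL/6, while the methods describe CD1 and C3H backgrounds. The study's figure legends call the samples of a group biological replicates, but the labels do not say that they came from separate animals or lines. A p-value therefore measures the spread between these samples only, which may be technical.

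Neuropeptides are cut from larger precursors in the secretory pathway, stored in dense-core vesicles, released on stimulation and read mainly by G protein-coupled receptors. *Calca* makes calcitonin in thyroid C cells and calcitonin gene-related peptide (CGRP) in sensory neurons by use of alternative exons, and CGRP also marks pulmonary neuroendocrine cells. *Calcb* makes a second CGRP. *Adcyap1* encodes PACAP, *Nts* neurotensin, *Npy* neuropeptide Y, *Gal* galanin, *Tac1* substance P and neurokinin A, *Vip* vasoactive intestinal peptide, *Sst* somatostatin and *Penk* the enkephalins. In the DRG, CGRP, substance P, galanin and PACAP are known peptides of sensory neurons, where several of them change after nerve injury. On GRCm38 the genes other than the CGRP pair lie at chr17:93199017-93206537 (*Adcyap1*), chr10:102481756-102490486 (*Nts*), chr6:49822710-49829507 (*Npy*), chr19:3409915-3414544 (*Gal*), chr6:7554879-7565834 (*Tac1*), chr10:5639218-5647617 (*Vip*), chr16:23889573-23890958 (*Sst*) and chr4:4133531-4138819 (*Penk*).

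*Calca* and *Calcb* are paralogs on chromosome 7, at chr7:114631478-114636357 on the minus strand and chr7:114718643-114723365 on the plus strand of GRCm38. The exons that encode CGRP are shown because counts for these paralogs depend on bases that tell them apart. Capitals mark bases that differ between the paralogs or have no counterpart, in the coding part of exon 4 of Calca-201 (chr7:114632443-114632599) and of Calcb-201 (chr7:114721975-114722134), both from GENCODE M21.
Calca CGRP exon: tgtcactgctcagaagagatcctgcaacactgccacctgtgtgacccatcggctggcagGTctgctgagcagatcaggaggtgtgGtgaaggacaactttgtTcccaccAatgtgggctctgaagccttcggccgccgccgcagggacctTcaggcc
Calcb CGRP exon: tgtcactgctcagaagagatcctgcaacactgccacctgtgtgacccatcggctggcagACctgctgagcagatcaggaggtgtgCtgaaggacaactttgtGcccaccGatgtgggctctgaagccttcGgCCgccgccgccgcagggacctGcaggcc
Of 160 aligned positions, 151 were identical (94.4%). The longest run shared by these transcripts was 60 bases, and 26 of 1260 *Calcb* transcript stretches of 36 bases also occurred in a *Calca* transcript, against 0 of 1260 at 75 bases. Reads inside the shared stretch could be counted for either gene or for neither, and the part this played in the counts was not tested. The exon that *Calca* uses for calcitonin instead lies at chr7:114633605-114633785 (coding part of exon 4 of Calca-202). It is shown, with no capitals, because gene counts sum both products and cannot tell calcitonin from CGRP transcripts.
Calca calcitonin exon: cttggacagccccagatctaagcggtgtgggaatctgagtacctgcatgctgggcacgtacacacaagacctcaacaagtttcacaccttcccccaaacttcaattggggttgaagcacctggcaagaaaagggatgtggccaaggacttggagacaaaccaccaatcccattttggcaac

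The 250 bases upstream of 4 start sites are shown for *Calca*, *Nts* and *Adcyap1*, the members chosen partly by their values, and for *Sst*, which was counted almost only in tail cells. *Sst* is also the gene in which the palindromic cAMP response element TGACGTCA is classically described, so this element, its core TGACG and the AP-1 element TGANTCA were searched on both strands in windows from 250 bases upstream to 50 bases downstream of the start. Capitals mark the matches. The windows are from RefSeq (GRCm38.p6) and are printed along the gene's own strand: *Calca* chr7:114636358-114636607 (minus), *Nts* chr10:102490419-102490668 (minus), *Adcyap1* chr17:93198767-93199016 (plus) and *Sst* chr16:23890845-23891094 (minus).
Calca upstream: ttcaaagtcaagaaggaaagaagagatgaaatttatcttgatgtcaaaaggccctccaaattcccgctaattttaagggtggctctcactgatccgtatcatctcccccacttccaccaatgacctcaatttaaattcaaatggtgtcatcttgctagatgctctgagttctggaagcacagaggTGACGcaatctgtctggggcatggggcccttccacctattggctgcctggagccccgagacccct
Nts upstream: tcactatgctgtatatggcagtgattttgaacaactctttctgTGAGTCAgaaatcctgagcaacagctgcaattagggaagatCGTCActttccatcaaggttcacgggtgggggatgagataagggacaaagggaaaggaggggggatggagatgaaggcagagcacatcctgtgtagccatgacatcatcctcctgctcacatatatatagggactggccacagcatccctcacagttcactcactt
Adcyap1 upstream: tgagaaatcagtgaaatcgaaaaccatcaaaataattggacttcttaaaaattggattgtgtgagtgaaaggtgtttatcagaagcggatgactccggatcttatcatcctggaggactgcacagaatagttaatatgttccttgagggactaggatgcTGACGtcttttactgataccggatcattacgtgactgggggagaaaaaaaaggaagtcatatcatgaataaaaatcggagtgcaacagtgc
Sst upstream: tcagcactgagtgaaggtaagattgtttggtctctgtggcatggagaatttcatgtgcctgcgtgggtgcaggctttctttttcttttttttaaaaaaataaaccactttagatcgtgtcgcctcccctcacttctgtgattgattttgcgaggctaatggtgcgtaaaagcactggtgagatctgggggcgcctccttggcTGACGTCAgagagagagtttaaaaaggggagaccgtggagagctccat
The core lay 65 bases upstream of the *Calca* start, 166 bases upstream of *Nts* and 91 bases upstream of *Adcyap1*. TGACG, which every TGACGTCA also contains, was found in 7 of the 8 members with a window and in 20.81% of all 32851 windows. The whole palindrome was found in 1 of 8, *Sst*, and in 1.79% of all windows. TGANTCA was found in 1 of 8, *Nts*, and in 7.808% of all windows. These matches describe letters in a window, and the motifs were picked with the expression values known. *Calcb* and *Penk* had no window.

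Levels are counts per 1e+06 counts of the library (cpm), with library sizes scaled by TMM across the samples, and 1 library with 3 counts of a gene had 0.131 to 0.295 cpm, which is used as the limit that a count of 0 allows. Library totals ran from 9808246 to 22637031 counts. NCSC replicate 3 stood apart from the other 2 NCSC libraries. Squared differences between its counts and theirs were 17.8 and 22.3 times those of counting error (chi-square per degree of freedom). In the 21 other pairs of replicates this value ran from 1.09 to 2.90. *Prdm12*, a transcription factor of nociceptors, was at 4.29 ± 0.601 cpm (SD, n = 3) in NCSCs and at 0 counts in the other 10 groups. All 15 sensory neuron markers and all 9 crest and Schwann cell markers reached 1 cpm in NCSCs. Bulk samples cannot tell fewer cells of a type from less RNA per cell.

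*Calca* was highest in Nes-GFP lung pNSCs, with 149 and 147 cpm in the 2 libraries. It was at 50.9, 47.9 and 53.6 cpm in NCSCs and at 16.5 and 18.3 cpm in Nes-GFP tail pNSCs. Sox2-GFP lung pNSCs had 16.5, 14.5 and 17.1 cpm, which overlapped the Nes-GFP tail pNSCs. The NCSC level thus lay between the lung and the tail lines of the Nes-GFP mice.

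The Wnt1-Cre pNSC lines were far lower in *Calca*. Tail pNSCs had 0.618, 0.972 and 1.06 cpm and DRG pNSCs 1.02, 0.787 and 0.674 cpm, from 7 to 21 counts per library, and these groups overlapped. Sox2-GFP brain NSCs, at 1.51, 1.91 and 1.67 cpm, lay above both. Wnt1-Cre brain NSCs had 0.358, 0.290 and 0 cpm, and Nes-GFP brain NSCs had 0 counts in both libraries. Lung cells, at 0.215 and 0.308 cpm, and tail cells, at 0.112 and 0.0639 cpm, had 1 to 5 counts per library and overlapped the Wnt1-Cre brain NSCs, but not each other.

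**Figure D1:**
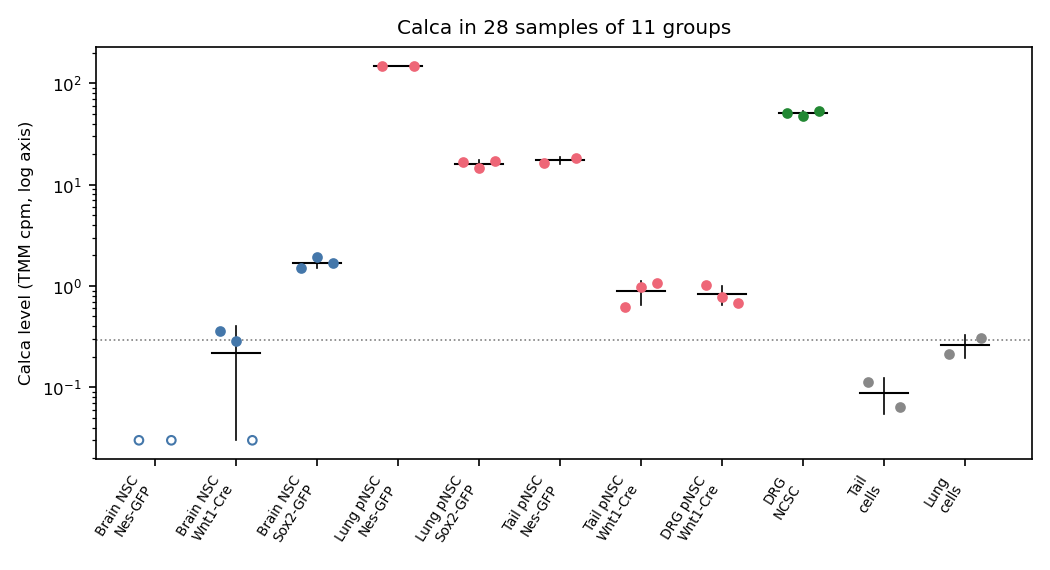
*Calca* level in cpm on a log axis for each of the 28 samples by group, with bars for the mean and ± SD. Open circles are libraries with 0 counts, drawn at 0.03 cpm, and the dotted line is the largest level that 3 counts stand for (0.295 cpm). Nes-GFP lung pNSCs sit at 147 and 149 cpm and Wnt1-Cre pNSCs between 0.618 and 1.06 cpm.

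Within each kind of mouse the pNSC libraries lay above the brain NSC libraries without overlap, which is part of why *Calca* was chosen. As a description, Nes-GFP lung pNSCs were at least 984-fold and Nes-GFP tail pNSCs at least 116-fold higher in *Calca* than brain NSCs, taking 3 counts per library for the brain NSC libraries at 0. The log2 fold change was 3.24 ± 0.13 (SE) for Sox2-GFP lung pNSCs, 2.01 ± 0.51 for Wnt1-Cre tail pNSCs and 1.95 ± 0.57 for Wnt1-Cre DRG pNSCs, each against the brain NSCs of the same kind of mouse. Against lung cells, *Calca* was higher by 9.08 ± 0.15 in Nes-GFP and by 5.90 ± 0.23 in Sox2-GFP lung pNSCs on the log2 scale. Against tail cells, which had 2 and 1 counts, Nes-GFP tail pNSCs had a ratio of 195 (95% exact counting interval 66.3 to 947). Against NCSCs, *Calca* was lower by a log2 fold change of -5.86 ± 0.14 in Wnt1-Cre tail and -5.92 ± 0.17 in DRG pNSCs.

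Some *Calca* contrasts were not those it was chosen for and were tested with edgeR's quasi-likelihood test and Benjamini-Hochberg adjustment over all genes. They share libraries with the contrasts that chose it, so their p-values are not fully free of that choice. Nes-GFP tail pNSCs were lower than lung pNSCs by a log2 fold change of -3.09 ± 0.07, with an adjusted p too small for the software to write. The tail line was postnatal and the lung line adult, so tissue and age cannot be told apart in this contrast. *Calca* was the 1 of 6 tested members that passed there, where 12.9% of all genes tested passed (adjusted p under 0.05 and at least 2-fold) and 7.86% passed as lower. The other members tested passed the filter only through the tissue cells. They had 5 counts or fewer per library in both lines, so the number called supports nothing further. NCSCs exceeded Wnt1-Cre brain NSCs by 7.87 ± 0.21 (adjusted p = 5.22e-16, edgeR). Wnt1-Cre tail and DRG pNSCs differed by 0.06 ± 0.36 (adjusted p = 0.899, edgeR), a ratio of 1.05 with a counting interval of 0.650 to 1.72. Tail and lung cells had a ratio of 2.88 in favour of lung cells (0.720 to 16.6, adjusted p = 0.135, edgeR).

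*Calcb* was counted mainly in NCSCs, at 5.42, 4.37 and 6.04 cpm, which held 88.64% of its 352 counts. Nes-GFP lung pNSCs had 9 and 7 counts (0.408 ± 0.0233 cpm) and lung cells 6 and 9 (0.439 ± 0.164 cpm), and the other 8 groups had 3 counts or fewer per library. The 2 paralogs thus did not keep one ratio. *Calcb* made up 9.36% of their joint counts in NCSCs (exact 95% interval 8.39 to 10.4%), and 9.61, 8.36 and 10.1% in the 3 libraries. It made up 0.276% in Nes-GFP lung pNSCs (0.158 to 0.448%), 0.473% in Sox2-GFP lung pNSCs (0.154 to 1.10%) and 0.309% in Nes-GFP tail pNSCs (0.0374 to 1.11%). In lung cells it was 15 of 24 counts, 62.5% (40.6 to 81.2%). These intervals, like the limits for a count of 0, cover counting error only.

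NCSCs were the group with the most members, 8 of 10 above 3 counts in all 3 libraries. Per kilobase of exon, which allows genes to be compared, *Nts* led at 92.8 ± 6.02 cpm per kb (SD, n = 3), followed by *Npy* at 35.2 ± 7.16, *Calca* at 30.2 ± 1.69, *Adcyap1* at 26.0 ± 0.582, *Penk* at 24.6 ± 2.46 and *Gal* at 22.0 ± 6.10. *Npy*, *Calca*, *Adcyap1*, *Penk* and *Gal* are near enough that several neighbours in this order lie within their spread. *Calcb* at 4.18 ± 0.669 and *Tac1* at 2.97 ± 0.451 cpm per kb were lower. *Sst* was at 0.0214 cpm per kb and *Vip* at 0.

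**Figure D2:**
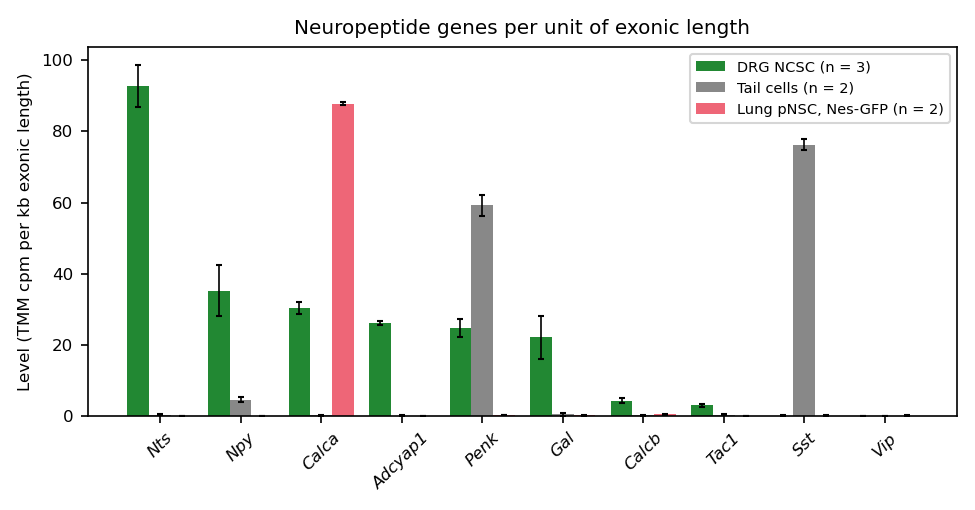
Level per kilobase of exon (cpm per kb, linear axis from 0) of the 10 members in NCSCs (n = 3), tail cells (n = 2) and Nes-GFP lung pNSCs (n = 2), as bars for the mean over samples with error bars of ± SD. *Nts* leads in NCSCs at 92.8 cpm per kb, *Calca* in Nes-GFP lung pNSCs at 87.9 cpm per kb and *Sst* in tail cells at 76.3 cpm per kb.

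*Nts* and *Adcyap1* were close to being NCSC genes alone in these samples. *Nts* had 110, 114 and 124 cpm (2368, 2392 and 2117 counts) in NCSCs, 99.52% of its counts. *Adcyap1* had 97.7, 96.2 and 100.5 cpm (2109, 2025 and 1713 counts), 99.93% of its counts. The pNSC lines had next to none. As a description, NCSCs had at least 647-fold more *Adcyap1* than Wnt1-Cre tail pNSCs, at least 333-fold more than DRG pNSCs and at least 339-fold more than Wnt1-Cre brain NSCs. They had at least 764-fold more *Nts* than tail pNSCs and at least 400.0-fold more than brain NSCs, with a ratio of 1863 (515 to 15384) for DRG pNSCs, which had 2 counts in all.

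The other NCSC peptides were tested. *Npy* was at 17.5, 17.6 and 24.6 cpm and *Gal* at 14.1, 15.1 and 22.9 cpm, replicate 3 being the highest for both. *Tac1* was at 8.85, 9.59 and 11.8 cpm and *Penk* at 39.1, 36.9 and 44.7 cpm, again with replicate 3 highest. None of these overlapped the pNSC or brain NSC libraries. Against Wnt1-Cre brain NSCs all 6 members tested were higher, *Calca* and *Calcb* among them (36.9% of all genes tested passed, 22.1% as higher). *Npy* was at least 68.7-fold higher (adjusted p = 1.62e-10, edgeR), *Gal* at least 59.9-fold (1.76e-09) and *Calcb* at least 18.2-fold (8.16e-08). The ratio was 332 for *Tac1* (59.4 to 13134, adjusted p = 3.54e-11, edgeR) and 166 for *Penk* (84.3 to 386, adjusted p = 2.52e-15). Except for *Calca*, the members that passed the filter here did so only through the NCSC libraries, where they are high, so they had to differ and their number supports nothing further.

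The same 5 members, *Calcb*, *Npy*, *Gal*, *Tac1* and *Penk*, were lower in both Wnt1-Cre pNSC groups than in NCSCs, where 37.9% (tail) and 38.3% (DRG) of all genes tested passed, 22.6% and 23.3% as lower. They passed the filter only through the NCSC libraries, so being lower was fixed by the filter and their number supports nothing. In tail pNSCs the log2 fold change was -7.23 ± 0.29 for *Npy* (adjusted p = 2.21e-11, edgeR), -5.81 ± 0.29 for *Tac1* (3.42e-12) and -6.36 ± 0.17 for *Penk* (2.41e-16), and *Gal* had a ratio of 543 (149.9 to 4490, adjusted p = 1.81e-10). In DRG pNSCs, from the same kind of tissue as the NCSCs, *Npy* was at least 67.5-fold lower (adjusted p = 1.75e-10, edgeR), *Gal* at least 58.8-fold (1.88e-09) and *Calcb* at least 17.9-fold (8.72e-08), and *Penk* had a log2 fold change of -7.31 ± 0.22 (2.76e-15). The NCSCs came from adult wild-type mice and both pNSC groups from postnatal Wnt1-Cre mice. Kind of cell, age and kind of mouse cannot be told apart in these contrasts. Against Wnt1-Cre brain NSCs, kind of cell and kind of mouse cannot be told apart either. Without NCSC replicate 3, 6, 5 and 5 members passed in these 3 comparisons, and 34, 31 and 36 genes of the receptor, processing and further peptide lists together, against 35, 33 and 35 with it. The sensory neuron list summed to 1018 to 1028 cpm in NCSCs and to 240 to 1356 cpm in the pNSC and brain NSC groups. The crest and Schwann list summed to 4633 to 4722 cpm and to 28.9 to 157 cpm. *Scn10a*, a sodium channel of nociceptors, was at 20.4 ± 3.08 cpm in NCSCs and at 1 count or none per library in every pNSC and brain NSC group. Of the lists for other cells, 8 fibroblast markers summed to 3041 to 3681 cpm in NCSCs and to 7.67 to 444 cpm in the pNSC and brain NSC groups, and 6 leukocyte markers to 634 to 667 cpm and to 0.839 to 3.91 cpm. All 8 and all 6 reached 1 cpm in NCSCs. The part of other cells in the NCSC cultures in these results was not tested.

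**Figure D3:**
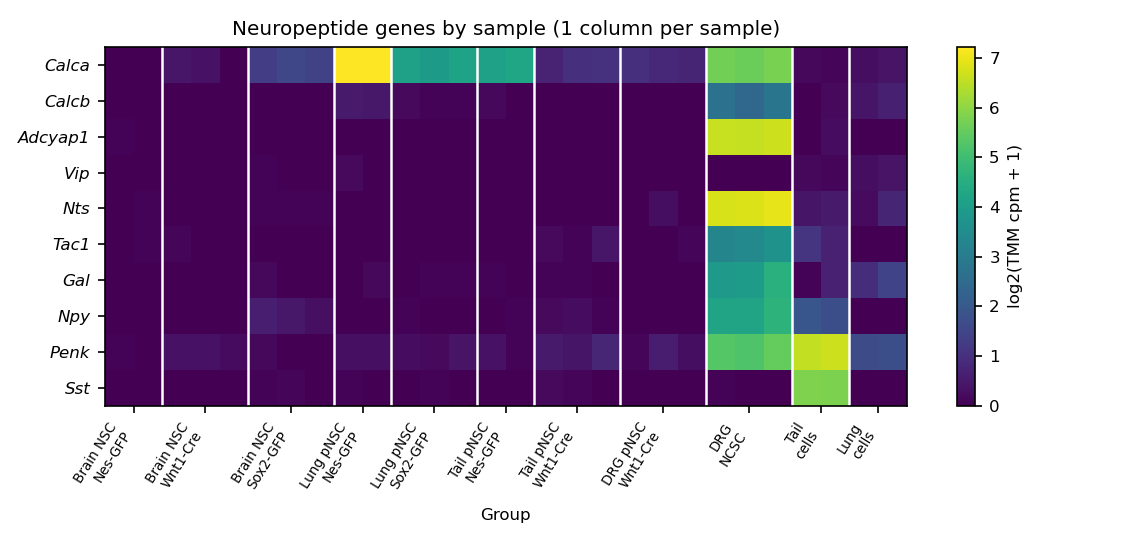
Level of each of the 10 members (rows) in each of the 28 samples (columns, by group), as log2 of cpm with 1 added before the logarithm. NCSCs are high in 8 members, tail cells in *Sst* and *Penk* (55.0 and 96.8 cpm), and the pNSC and brain NSC columns are near 0 for all members but *Calca*.

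Tail and lung cells, the tissue from which Nes-GFP lines were derived, held other peptides. *Sst*, which inhibits secretion in many tissues, was found almost only in tail cells: 994 and 848 counts there (55.0 ± 1.08 cpm), 99.41% of its total, and 3 counts or fewer per library elsewhere. *Penk* was also highest in tail cells, at 96.8 ± 4.97 cpm (1662 and 1568 counts), above NCSCs at 40.2 ± 4.03 cpm. Lung cells had 41 and 38 *Penk* counts, 2.27 ± 0.0946 cpm. *Penk* is overlapped on the opposite strand by *A830012C17Rik*, and whether the counting used strand is not given in the sources used here, so reads of the pair may not be told apart. *Npy* was at 2.55 ± 0.356 cpm and *Tac1* at 0.877 ± 0.426 cpm in tail cells, and 0 counts in lung cells. *Gal* was at 1.32 ± 0.572 cpm in lung cells and 0.316 ± 0.367 cpm in tail cells, which had 1 and 9 counts. Thus *Penk*, *Sst*, *Npy* and *Tac1* were higher in tail cells and *Gal* in lung cells. The labels give no age for these cells by tissue, so tissue and age may not be told apart.

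Tested against each other, tail cells were higher than lung cells in *Npy* (at least 13.8-fold, adjusted p = 1.94e-17, edgeR), *Tac1* (at least 4.75-fold, 3.24e-07), *Sst* (at least 298-fold) and *Penk* (log2 5.45 ± 0.12), and lower in *Gal* (-2.05 ± 0.57, 4.79e-04), 5 of 6 tested members where 43.4% of all genes passed, 20.5% as higher and 22.9% as lower. *Npy*, *Tac1* and *Sst* passed the filter only through the tail cells and *Gal* only through the lung cells, so they had to differ and the number of members called supports nothing. The *Gal* call was lost without tail cells replicate 1 or lung cells replicate 2. Without tail cells replicate 1, 3 of the members passed. Of 9 interneuron markers, read because *Sst* marks a class of brain interneurons, 4 reached 1 cpm in tail cells and 1 in lung cells, with sums of 40.2 to 42.0 cpm and 7.88 to 9.96 cpm. The part of any cell type in the *Sst* level was not tested.

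The lines derived from these tissues were compared with them next. Except for *Calca*, the members that passed the filter there did so through the tissue cells, where they are high. Being lower in the lines was therefore largely fixed by the filter, and the number of members called supports nothing further. *Npy*, *Tac1* and *Sst* passed through the tail cells only, so they could not be called in lung. Nes-GFP tail pNSCs were lower than tail cells in all 5 members tested (46.7% of all genes passed, 32.6% as lower): *Npy* with a ratio of 95.1 (16.6 to 3799, adjusted p = 4.14e-17, edgeR), *Tac1* by at least 5.07-fold (1.22e-07), *Sst* by at least 318-fold, *Penk* by a log2 fold change of -9.25 ± 0.18, and *Gal* with a ratio of 11.1 (1.57 to 480, 0.0116). The *Gal* values of the groups overlapped, and its call was lost without tail pNSC replicate 2 or tail cells replicate 2. In lung, Nes-GFP pNSCs were lower than lung cells in *Gal* (ratio 25.2, 6.59 to 215, adjusted p = 8.91e-09, edgeR) and *Penk* (log2 -3.31 ± 0.42, 3.25e-15), 2 of 5 tested where 55.0% of all genes passed and 34.9% as lower. Sox2-GFP lung pNSCs were lower in the same 2 (ratio 42.3, 11.1 to 360, adjusted p = 2.95e-15 for *Gal*; log2 -3.39 ± 0.39, 2.55e-18 for *Penk*), 2 of 2 tested where 56.3% of all genes passed and 34.9% as lower. These 2 lung contrasts share the lung cell libraries. Nes-GFP lung pNSCs came from adult and Sox2-GFP lung pNSCs from postnatal mice, and the labels do not say which age the lung cells were.

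Among pNSC and brain NSC lines, members other than *Calca* were near the counting limit. *Penk* was at 0.0251 to 0.491 cpm as group means, *Calcb* reached 0.408 cpm in Nes-GFP lung pNSCs and *Npy* 0.381 cpm in Sox2-GFP brain NSCs. Wnt1-Cre tail pNSCs had 10, 7 and 14 counts and the brain NSCs of the same mice had 0.242 cpm, a ratio of 2.02 (0.910 to 5.08) that did not pass (adjusted p = 0.135, edgeR). *Penk* passed as higher in Nes-GFP lung pNSCs than in brain NSCs, at a ratio of 9.36 (1.30 to 410, adjusted p = 0.0285, edgeR), 1 of 5 members tested where 8.71% of all genes passed, 4.56% as higher. It also passed in Sox2-GFP lung pNSCs, at a ratio of 6.16 (1.41 to 55.8, adjusted p = 0.0120, edgeR), 1 of 2 tested where 15.7% passed, 5.76% as higher. Both rest on few counts and were lost when single libraries were left out: the first without Nes-GFP brain NSC replicate 2, lung pNSC replicate 1 or lung pNSC replicate 2, the second without Sox2-GFP brain NSC replicate 2 or 3 or lung pNSC replicate 3. In Nes-GFP tail pNSCs the ratio was 6.59 (0.800 to 303, adjusted p = 0.0980, edgeR), and none of 5 tested passed where 10.9% of all genes did.

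In the other comparisons of lines, edgeR called 0 members. These were Wnt1-Cre tail pNSCs against brain NSCs (7 tested, 18.2% of all genes passed), DRG pNSCs against brain NSCs (7 tested, 9.53%) and tail against DRG pNSCs (8 tested, 18.0%), with 0 members at an unadjusted p under 0.05 in each. Except for *Calca*, tested in tail against DRG pNSCs, these members passed the filter only through the NCSC libraries. In Wnt1-Cre brain NSCs and DRG pNSCs, *Adcyap1*, *Calcb*, *Npy* and *Gal* had 0 counts. The absence of calls therefore shows no likeness between these lines. DESeq2 called 1, 0 and 1 member, which was *Npy* in tail pNSCs (3, 4 and 1 counts, against 0 in both other groups). The tail pNSC libraries were deeper, with totals of 19648349 to 22548268 counts. Totals were 9846360 to 11315870 in brain NSCs and 9808246 to 11431445 in DRG pNSCs, so a count of 0 says less there. For the first and the last of these comparisons, the adjusted p for *Npy* by edgeR was 0.0934 and 0.0980. Other edgeR fits called *Npy* in both: the adjusted p was 0.0415 and 0.0449 with the replicate block, and 0.0426 and 0.0445 with no filter. The Nes-GFP tail pNSCs against brain NSCs also had 0 at an unadjusted p under 0.05 and 0 by DESeq2. There the members tested passed the filter only through the tissue cells, so the absence of calls shows no likeness either. A difference between mice in the pNSC less brain NSC change was tested for 8 members, and edgeR called 0 both in tail (Nes-GFP less Wnt1-Cre, 16.0% of all genes passed) and in lung (Nes-GFP adult less Sox2-GFP postnatal, 14.1%). There were 0 at an unadjusted p under 0.05 and 0 by DESeq2 in either. *Adcyap1*, *Calcb*, *Npy* and *Nts* in both, *Gal* and *Sst* in tail and *Tac1* in lung had counts too near 0 for an estimate (SE of 501 or more). They could not have been called, so the absence of calls shows no likeness between mice. For *Penk* the difference was 1.42 ± 1.40 (adjusted p = 0.454, edgeR) in tail and 0.48 ± 1.70 (adjusted p = 0.925, edgeR) in lung on the log2 scale. *Npy* in Sox2-GFP brain NSCs had 9, 9 and 4 counts against 1 count in lung pNSCs, a ratio of 25.0 (4.04 to 1032) that the filter on low counts kept out of the test. *Vip* had 16 counts over all samples, at most 5 in a library (a lung cell library) and 0 in NCSCs, and did not pass the filter in any fit.

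Genes whose group means followed those of *Calca* and *Nts* most closely were ranked by Pearson's r over 11 groups, on log2 of cpm with 1 added, among 13283 genes that reached 10 cpm. For *Nts*, the first 5 were *Trpv1*, the capsaicin receptor, *Lrtm1*, *Nefh*, the heavy neurofilament, *4930469K13Rik* and *Pirt*, with r from 0.998 to 0.999. *Adcyap1* ranked 8 (r = 0.997), *Gal* 28, *Tac1* 30 and *Npy* 73, while *Penk* ranked 1001. All of these points share the NCSC group as the one high value. For *Calca*, the first 5 were *D11Wsu47e*, *Tmem19*, *Tbcd*, *Efr3a* and *Osbpl11*, with r from 0.792 to 0.846. Their ranges were narrow, 13.1 to 23.2 cpm for *D11Wsu47e* and 29.0 to 83.0 cpm for *Tmem19*, against 0 to 148 cpm for *Calca*, and by Spearman's rank none of the 5 was among the first 5 for either gene. No other member that reached 10 cpm followed *Calca* closely, the nearest being *Adcyap1* at r = 0.436. *Calcb* and *Vip* did not reach 10 cpm in any group and were not ranked.

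Receptors of the members' peptides and of related peptides formed a list of 31 genes. CGRP is read by *Calcrl* with *Ramp1*, PACAP by *Adcyap1r1* and neurotensin by *Ntsr1* and *Ntsr2*. *Adcyap1r1* was at 314 to 1594 cpm as group means in brain NSCs and pNSCs and at 1.16 ± 0.653 cpm (SD, n = 3) in NCSCs, which held *Adcyap1* at 98.1 ± 2.2 cpm. *Calcrl* was at 11.9 ± 0.414 cpm in NCSCs and at 39.0 to 293 cpm in brain NSCs and pNSCs. It was highest in lung cells, at 1360 ± 7.40 cpm. *Ramp1* was at 0.435 ± 0.207 cpm in NCSCs and 60.0 to 158 cpm in brain NSCs and pNSCs, except for Nes-GFP tail pNSCs at 2.05 ± 0.0492 cpm.

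**Figure D4:**
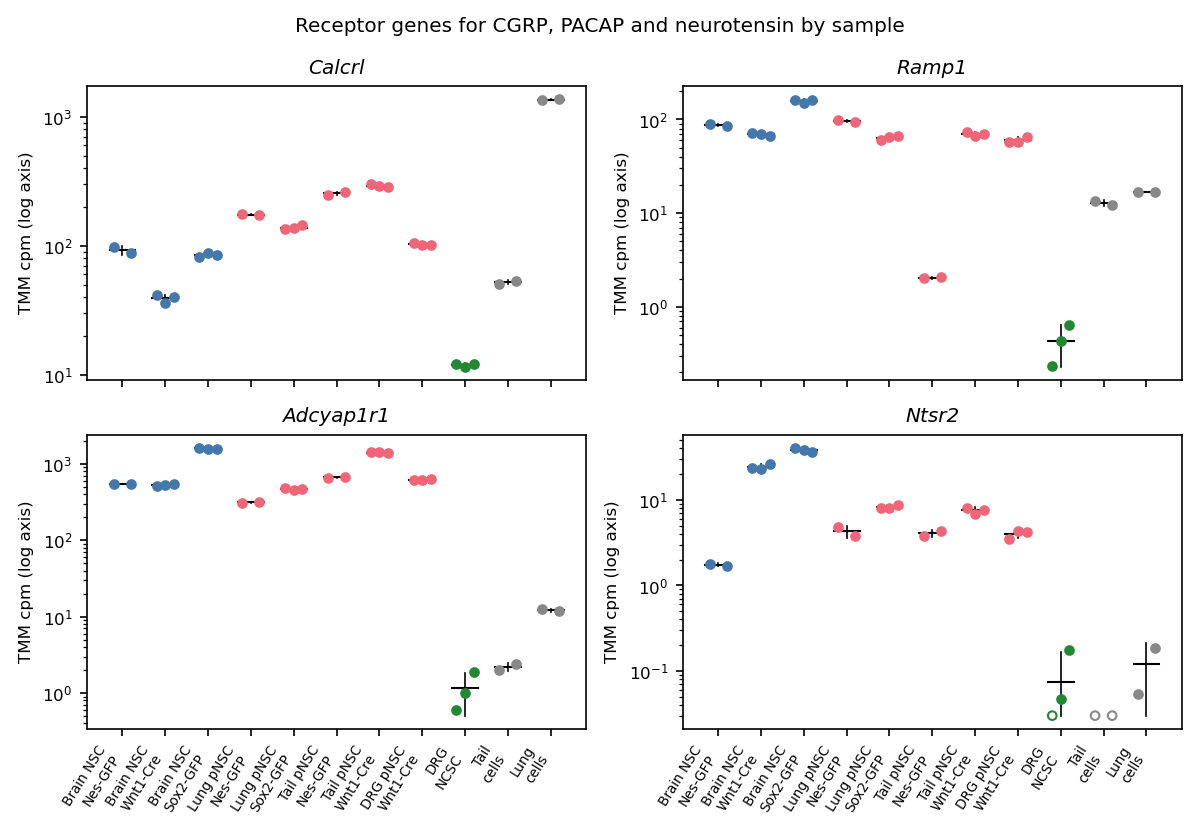
Level in cpm on a log axis of receptor genes for CGRP, PACAP and neurotensin by group, with points for single samples and bars for the mean and ± SD. Open circles are libraries with 0 counts, drawn at 0.03 cpm. *Adcyap1r1* is at 314 cpm or more in every pNSC and brain NSC group and at 1.16 cpm in NCSCs, and *Ramp1* drops to 2.05 cpm in Nes-GFP tail pNSCs.

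Against Wnt1-Cre brain NSCs, NCSCs were lower in *Adcyap1r1* (log2 -8.88 ± 0.11, adjusted p = 1.19e-20, edgeR), *Ramp1* (-7.34 ± 0.14, 2.22e-18) and *Ntsr2* (ratio 364, 142 to 1340, adjusted p = 1.91e-15), and higher in *Tacr1*, the substance P receptor (ratio 19.8, 9.90 to 46.2, 3.01e-10). Of 15 receptors tested, 4 were higher and 7 lower, where 36.9% of all genes passed, with a median log2 fold change of 0.28 beside 0.015 over all genes. Among the lines, *Calcrl* was higher than in brain NSCs in Nes-GFP tail pNSCs (1.44 ± 0.04, adjusted p = 3.03e-307, edgeR), Wnt1-Cre tail pNSCs (2.90 ± 0.05, 7.00e-18) and DRG pNSCs (1.39 ± 0.05, 6.45e-13). *Ramp1*, its partner, was lower in Nes-GFP tail pNSCs by a log2 fold change of -5.43 ± 0.11, with an adjusted p too small to write. *Ntsr2* was higher in Nes-GFP tail (1.21 ± 0.26, 1.29e-05) and lung pNSCs (1.29 ± 0.25, 2.59e-06), and lower in Wnt1-Cre tail (-1.69 ± 0.11, 4.50e-10), DRG (-2.61 ± 0.14, 1.03e-10) and Sox2-GFP lung pNSCs (-2.20 ± 0.07, 2.54e-216). In these 5 comparisons 5 of 21, 3 of 21, 7 of 15, 6 of 15 and 7 of 18 receptors passed, for Nes-GFP tail, Nes-GFP lung, Wnt1-Cre tail, Wnt1-Cre DRG and Sox2-GFP lung, with medians of 0, 0.28, 0.22, -0.21 and -0.10. The backgrounds given above for the same comparisons were 10.9, 8.71, 18.2, 9.53 and 15.7%.

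Genes that cut, amidate, package and degrade peptides formed a list of 33. *Pcsk1*, which cuts prohormones, was highest in Wnt1-Cre DRG pNSCs at 30.9 ± 1.70 cpm and second in NCSCs at 11.1 ± 1.42 cpm (SD, n = 3 each). It had a group mean of 2.46 cpm or less in every other group. DRG pNSCs thus had *Pcsk1* without the peptides of NCSCs, at a log2 fold change of 6.28 ± 0.18 over brain NSCs (adjusted p = 2.36e-14, edgeR). *Vgf*, a granin-like precursor, was at 180 ± 13.0 cpm in NCSCs and at group means of 1.46 cpm or less elsewhere, a log2 fold change of 6.99 ± 0.12 over Wnt1-Cre brain NSCs (1.22e-18). *Syt4*, a synaptotagmin of secretory vesicles, was higher by 9.08 ± 0.14 (2.06e-19), and *Scg2*, a granin, by 5.19 ± 0.16 (1.97e-15). In NCSCs against brain NSCs, 13 of 30 were higher and 2 lower, where 22.1% of all genes were higher and 36.9% passed in all, with a median of 0.61. Against NCSCs, 14 of 30 were lower and 1 higher in tail pNSCs (median -0.87) and 13 lower and 3 higher in DRG pNSCs (median -0.40), where 37.9% and 38.3% of all genes passed, 22.6% and 23.3% as lower. Which genes of this list passed the filter only through the NCSC libraries was not determined. Such genes had to differ, so these numbers are given as a description only.

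The pNSC lines were also compared with brain NSCs. *Pcsk6*, a furin-like protease, was higher in Nes-GFP tail (2.76 ± 0.06), Nes-GFP lung (2.57 ± 0.06) and Sox2-GFP lung pNSCs (2.35 ± 0.04), with adjusted p values too small for the software to write. *Pcsk1* had 25 and 16 counts in Nes-GFP lung pNSCs against none in brain NSCs, at least 6.90-fold higher (adjusted p = 3.17e-09, edgeR). The counts passing were 3 higher and 7 lower of 27 in Nes-GFP tail, 3 and 3 of 27 in Nes-GFP lung, 3 and 6 of 30 in Wnt1-Cre tail, 3 and 1 of 30 in DRG and 2 and 10 of 31 in Sox2-GFP lung pNSCs, where 10.9, 8.71, 18.2, 9.53 and 15.7% of all genes passed.

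**Figure D5:**
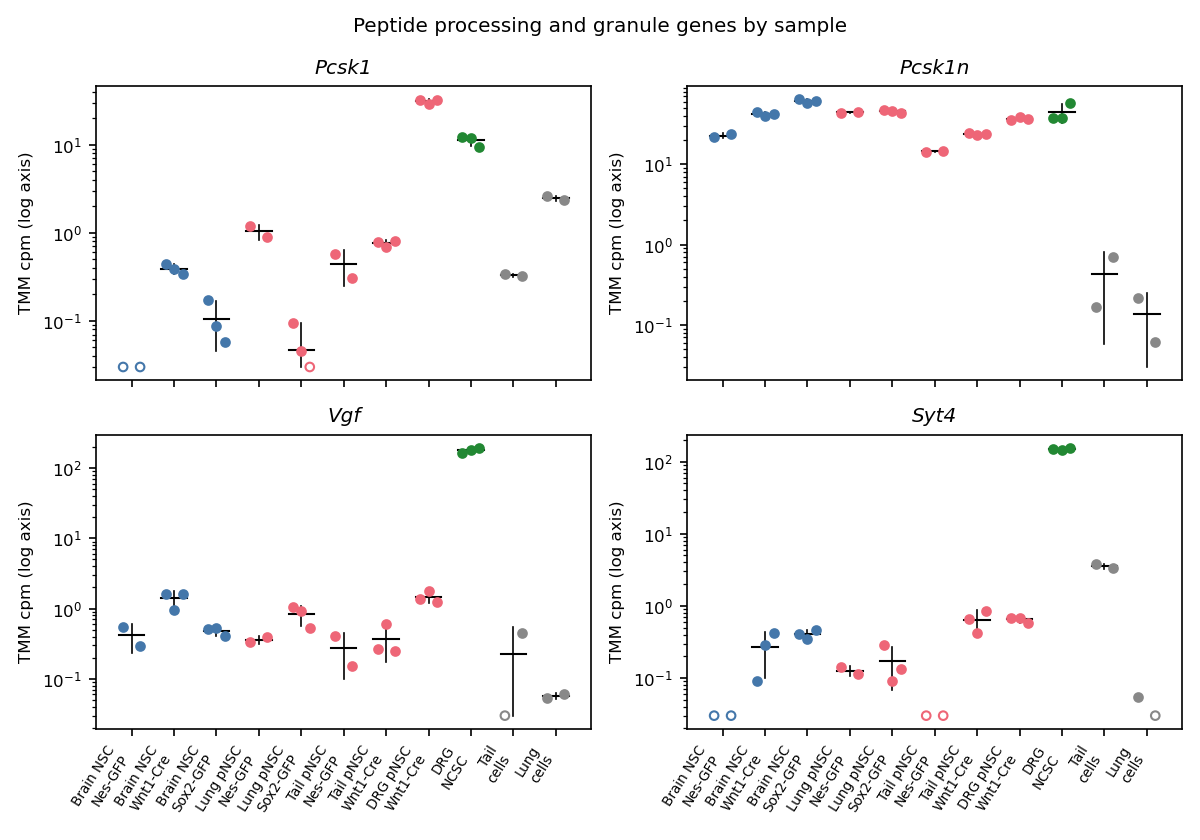
Level in cpm on a log axis of genes that process and store neuropeptides, by group, with points for single samples and bars for the mean and ± SD. Open circles are libraries with 0 counts, drawn at 0.03 cpm. *Pcsk1* peaks in Wnt1-Cre DRG pNSCs at 30.9 cpm, while *Vgf* is at 180 cpm in NCSCs and at group means of 1.46 cpm or less elsewhere.

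A list of 48 further peptide genes showed which precursors the lines did transcribe. *Apln*, which encodes apelin, was at 206 cpm in Nes-GFP brain NSCs, 469 cpm in tail and 54.8 cpm in lung pNSCs, and was higher in tail (log2 1.16 ± 0.03) and lower in lung pNSCs (-1.93 ± 0.04). In Sox2-GFP lung pNSCs it was higher (2.02 ± 0.06). All 3 differences passed. *Adm*, which encodes adrenomedullin, another ligand of *Calcrl*, was lower in Nes-GFP tail (-2.07 ± 0.15) and Wnt1-Cre tail pNSCs (-1.85 ± 0.10) and higher in Nes-GFP lung (1.39 ± 0.10) and Sox2-GFP lung pNSCs (1.42 ± 0.09), all past the threshold. NCSCs were higher than Wnt1-Cre brain NSCs in *Ucn2* (at least 94.5-fold, adjusted p = 1.66e-13, edgeR) and *Cartpt* (ratio 336, 60.2 to 13310, 2.58e-09), and lower in *Apln* (-4.89 ± 0.08). Of 10 tested in that comparison, 5 were higher and 4 lower, where 36.9% of all genes passed and 22.1% were higher, with a median of 0.61. *Ucn2* and *Cartpt* passed the filter only through the NCSC libraries, so they had to differ and the number called higher supports nothing further. In the pNSC comparisons with brain NSCs, 3 of 21 (Nes-GFP tail), 3 of 21 (Nes-GFP lung), 5 of 10 (Wnt1-Cre tail), 2 of 10 (DRG) and 3 of 14 (Sox2-GFP lung) passed, where 10.9, 8.71, 18.2, 9.53 and 15.7% of all genes did.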

How the data were processed

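RNA of 28 mouse samples was read with poly(A) selection, the NEBNext Ultra RNA kit and single-end NextSeq500 sequencing. The authors deposited 1 table of raw read counts per gene, with 28 sample columns. The submitters' processing notes name HISAT2, HTSeq and Cufflinks and the build GRCm38. Strand setting, annotation and treatment of reads with several matches are not given in the sources used here.

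The members and lists were chosen with earlier results of these data known. Within each kind of mouse, counts were filtered (filterByExpr, minimum count 10, minimum total 15), TMM scaled and tested with edgeR 4.0.16 quasi-likelihood fits in R 4.3.3 over all groups of that experiment, with no covariate. Interactions used 1 fit over all samples. Calls need a Benjamini-Hochberg adjusted p under 0.05 over all genes and a change of at least 1 on the log2 scale in either direction. Tests ran on 16948 (Nes-GFP), 14448 (Wnt1-Cre), 16234 (Sox2-GFP) and 17393 genes (interactions). Scripts were tested on simulated data with 200 changed genes. Where the lower group was at 0, the fold is a bound against 3 counts per library. Where it had 1 to 3 counts per library, the ratio has an exact interval.

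Totals of 9808246 to 22637031 counts put 3 counts at 0.131 to 0.295 cpm. Genes of the receptor, processing and further peptide lists were named where called, among the 4 largest changes of a list in a comparison, without overlap and at 1 cpm or more in the higher group. Some levels of list genes in the other groups were added after values were seen. Alternatives were DESeq2 1.42.0, upper-quartile scaling, no filter, other samples in the fit, no fold limit, a replicate block and leaving out each library. Protein sequences were not used here, and the summed neuroendocrine marker list is not reported here.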

Additional observations from a re-analysis of the deposited data

Results flagged for a closer look

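The change from brain NSCs to pNSCs differed between kinds of mouse for some genes of the receptor, processing and further peptide lists, tested as an interaction with edgeR. Of 8 members tested in each, 0 passed, but most had counts too near 0 to be called. *Calca* was not tested, because it was chosen for this contrast.

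In tail (Nes-GFP less Wnt1-Cre, log2 scale) the difference was positive for *Apln* at 1.61, *Cort* at 3.85, *Ntsr2* at 2.90, *Pcsk6* at 2.32 and *Resp18* at 3.14. It was negative for *Cadps* at -1.89, *Calcrl* at -1.46, *Qpct* at -2.40, *Ramp1* at -5.43 and *Tacr1* at -4.14. *Cort* and *Tacr1* rest on low counts: *Cort* had 4 and 7 counts in Nes-GFP brain NSCs, and *Tacr1* had 0 and 1 counts in Nes-GFP tail pNSCs and 5 and 0 in the brain NSCs. Without Nes-GFP brain NSC replicate 1, the *Tacr1* difference was 0.075 (adjusted p = 0.811, edgeR), so that 1 library decides its call and direction.

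In lung (Nes-GFP less Sox2-GFP) the difference was positive for *Chgb* at 2.45, *Ntsr2* at 3.50, *Pcsk1* at 8.29, *Pcsk2* at 2.03 and *Sorl1* at 2.36. It was negative for *Apln* at -3.94, *Ptprn* at -2.91 and *Sstr2* at -3.39. *Pcsk1* had 0 counts in Nes-GFP brain NSCs, so its value depends on the prior count and is no bound. Over all genes 16.0% passed in tail and 14.1% in lung, and batch and kind of mouse cannot be told apart. In lung the age of the mice cannot be told apart from them either, since Nes-GFP lung pNSCs were adult and Sox2-GFP lung pNSCs postnatal. With all libraries, the adjusted p of every gene named for tail or lung was at most 0.0147 (edgeR).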

How the results depend on the processing

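Of the counts of members and list genes called under each alternative, 333 stayed within 1.5 times the reported one and 35 moved. Of member fold changes, 977 kept side and direction, 8 became called and 13 lost the call. Of list genes, 3890 kept theirs, 39 became called, 54 lost the call and 1 reversed: the *Tacr1* tail interaction was -4.14, and ran from -6.40 without Nes-GFP tail pNSC replicate 2 to 0.075 (adjusted p = 0.811, edgeR) without Nes-GFP brain NSC replicate 1. Levels moved by 0.941 to 1.03 times under other scalings.

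DESeq2 called 0 members in Nes-GFP lung pNSCs against brain NSCs (1 reported), and 1 in Wnt1-Cre tail pNSCs against brain NSCs and against DRG pNSCs (0 reported). With no filter the counts were 2 for Nes-GFP lung pNSCs against brain NSCs, 2 for Nes-GFP tail against lung pNSCs, 1 and 1 for Wnt1-Cre tail pNSCs against brain NSCs and DRG pNSCs, 2 for Sox2-GFP lung pNSCs against brain NSCs and 5 against lung cells. Fits of only the groups compared called 0 in Nes-GFP lung and 0 in Sox2-GFP lung pNSCs against brain NSCs, and 3 in Nes-GFP tail pNSCs against tail cells. A fit over all 28 samples called 2 in Nes-GFP lung pNSCs against brain NSCs, 2 in Nes-GFP tail against lung pNSCs, 2 in Sox2-GFP lung pNSCs against brain NSCs and 4 against lung cells. Without a fold limit, list genes called were 29 in Nes-GFP tail (18 reported) and 29 in lung pNSCs (12), 36 in Wnt1-Cre tail (21), 28 in DRG (12) and 40 in Sox2-GFP lung pNSCs (22) against brain NSCs, 30 in Nes-GFP tail against lung pNSCs (17), 51 in Wnt1-Cre tail pNSCs against NCSCs (33) and 39 against DRG pNSCs (20).

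Leaving out 1 library, members called ranged from 0 to 1 in Nes-GFP tail pNSCs against brain NSCs (1 without tail pNSC replicate 2), 1 to 2 in lung pNSCs against brain NSCs (2 without brain NSC replicate 1), 1 to 2 in tail against lung pNSCs (2 without tail replicate 1 or lung replicate 2), 3 to 6 in tail against lung cells, 0 to 1 in Wnt1-Cre tail against DRG pNSCs (1 without DRG replicate 2) and 0 to 1 in Sox2-GFP lung pNSCs against brain NSCs.

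The replicate numbers shared by groups gave no clear sign of pairing: deviations from group means correlated at -0.0554 to 0.129 over 45 pairs, of which 2 were over 0.1. Where both groups had 2 libraries, replicates 1 and 2 give the same value by construction, so these pairs are not separate checks. Low correlations cannot show that the samples were unpaired. With the replicate block, 1 member (*Npy*) passed in Wnt1-Cre tail pNSCs against brain NSCs and 1 against DRG pNSCs, and list genes called moved from 17 to 14 in Nes-GFP tail against lung pNSCs and from 54 to 49 in Sox2-GFP lung pNSCs against lung cells. Depth limits *Vip*, *Calcb* outside NCSCs and *Penk* among the lines to a few counts per library.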
